A study of Homo sapiens with 4 samples.

Results

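The genes described here are 36 known transcriptional targets of the tumor suppressor p53, listed by name. Earlier results of these data were known when they were chosen. Of the 36 symbols, 34 had a row in the expression tables, which list 18398 RefSeq transcripts, and the expression of EI24 and PHLDA3 was not analysed here. RNA was sequenced from the hepatocellular carcinoma cell lines Huh1 and Huh7, both long established in culture, 48 h after transfection with 15 nM of a negative control siRNA (NCsiRNA) or of an siRNA against CDCA8 (CDCA8siRNA). CDCA8, also called borealin, is a subunit of the chromosomal passenger complex, which corrects chromosome attachment and directs cytokinesis. Each line gave 1 library per siRNA, 4 in all, which leaves no measure of the spread between repeat transfections, and no treatment beside the siRNA is given for either group.

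p53 is a transcription factor that is held at a low level by MDM2, a ubiquitin ligase that marks it for destruction. After DNA damage, faulty mitosis or nucleolar stress the protein is stabilised, binds to its response elements as a tetramer and activates genes for growth arrest, DNA repair, cell death, metabolism and its own feedback control. In the liver p53 is known for limiting the growth of hepatocytes with abnormal chromosome content.

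The unit of the deposited values is not stated by the submitters, and they were read as RPKM because their steps behave so. RPKM is the reads of a transcript per kilobase of its length, scaled to the depth of the library. Such values can be compared between genes. From the steps of the low values the libraries held between 12197606 and 13384836 reads. A change is given as the difference of log2(RPKM + 1), which understates the change of low genes, and a gene was tested in a cell line if it reached 1 RPKM in at least 1 of its 2 libraries. A gene was called at a 2-fold change. CDCA8 itself was at 5.86 RPKM after knockdown against 24.1 RPKM in the Huh1 control, and at 7.36 against 51.5 RPKM in the Huh7 control. All 6 liver cell markers examined (ALB, AFP, APOA1, TTR, HNF4A and GPC3) were above 1 RPKM in every library, and their summed level was lower with CDCA8siRNA in both lines, 2889 against 3737 RPKM in Huh1 and 1691 against 2316 RPKM in Huh7. ALB made up most of the sum in Huh1, at 3447 and 2684 RPKM with NCsiRNA and CDCA8siRNA, and measured 1166 and 721 RPKM in Huh7. Not every marker was lower, since TTR went from 29.3 to 48.5 RPKM in Huh7 and AFP from 24.8 to 27.5 RPKM in Huh1. The 4 markers of other cell types (PTPRC, COL1A1, COL1A2 and SYP) summed to at most 0.622 RPKM in Huh1, where none reached 1 RPKM. In Huh7 they summed to 141 RPKM with NCsiRNA and 186 RPKM with CDCA8siRNA. Of these sums COL1A1, a fibrillar collagen gene, gave 107 and 125 RPKM and COL1A2, its partner chain, 31.4 and 56.9 RPKM. SYP, the marker of neurons, measured 2.29 and 3.05 RPKM in Huh7, and PTPRC, the marker of leukocytes, was at most 0.417 RPKM. The part of these shifts in the results below was not tested.

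The p53 target genes did not move together after CDCA8 knockdown. PLK2 and PERP rose in both cell lines, BTG2 rose in Huh7, and most of the others stayed near their control level. In bulk RNA, fewer cells of a type and less RNA per cell cannot be told apart. Of 30 p53 target genes tested in Huh1, 1 (PLK2) was at least 2-fold higher with CDCA8siRNA, against 0.320% of all 10940 genes tested, and 0 were at least 2-fold lower, against 0.174% of all genes. Of 30 tested in Huh7, 1 (BTG2) was at least 2-fold higher, against 0.873% of 11565 genes, and 0 were at least 2-fold lower, against 0.700%. The median change of the p53 target genes was 0.05 in Huh1 and 0.03 in Huh7 on the log2 scale, and the median over all genes tested was 0.02 and 0.03. With quantile normalization the median of the p53 target genes in Huh1 was -0.02, and the 2-fold calls over all genes in Huh1 were 22 higher and 20 lower in place of 35 and 19.

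Of 28 p53 target genes tested in both lines, 12 were higher with CDCA8siRNA in both, 7 lower in both and 9 differed in sign. All 10357 genes split into 4035, 3156 and 3166. Of the 28, 18 lay within 0.3 of no change on the log2 scale in both lines. The share of all genes within that range was not computed, so this count is not read as particular to the p53 target genes. At a 1.5-fold change in both lines, 2 of 28 were higher (PLK2 and PERP), against 1.19% of all 10357 genes tested in both, and 0 were lower, against 0.686%. A limma fit over the 4 libraries, with cell line included as covariate, tested the mean change over both lines, called the common change below. Most of the spread it used was borrowed from other genes (1 residual against 8.29 prior degrees of freedom). A gene whose changes differ between the lines can therefore pass. By an adjusted p-value under 0.05 the fit called 2 of 28 higher (again PLK2 and PERP), against 6.03% of all genes, and 0 of 28 lower, against 4.21%. These shares rest on 1 or 2 genes each and describe no shift of the p53 target genes as a whole. The 2 cell lines served as the only repeats of the siRNA contrast, so these p-values hold no variation between transfections of 1 line.

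**Figure D1:**
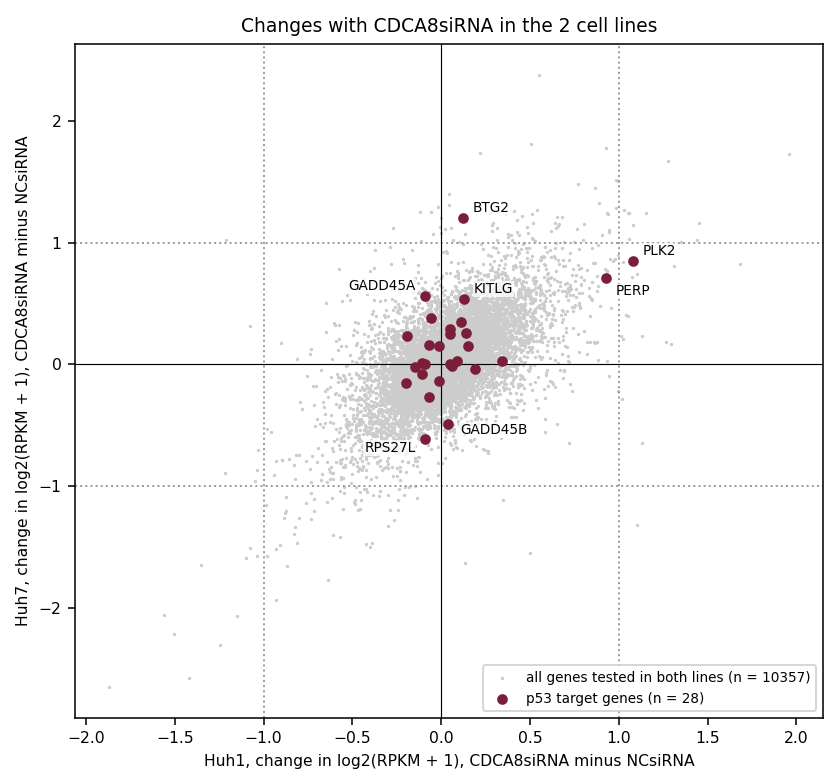
The change in log2(RPKM + 1) between CDCA8siRNA and NCsiRNA is plotted for Huh1 on the x axis and Huh7 on the y axis. Grey points are all 10357 genes tested in both lines, dark points the 28 p53 target genes among them, and dotted lines mark a 2-fold change. PLK2 and PERP lie at the upper right, BTG2 lies high in Huh7 at 1.20 and near no change in Huh1 at 0.12, and most of the others lie near the centre.

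The genes are described next by what they do, beginning with growth arrest and stress kinases. PLK2 encodes a polo-like kinase that is induced by p53 and acts on centriole duplication and on survival after spindle damage. Its level was 27.8 RPKM with NCsiRNA and 59.8 RPKM with CDCA8siRNA in Huh1, and 19.5 and 35.9 RPKM in Huh7. Both knockdown libraries stood above both control libraries. PLK2 rose by 1.08 in Huh1 and 0.85 in Huh7 on the log2(RPKM + 1) scale, and limma gave a common change of 0.96 ± 0.0995 (SE) with an adjusted p of 0.00129. The RPKM ratio was 2.15 in Huh1, with an exact 95% interval for counting error of 2.00 to 2.32, and 1.84 in Huh7, with an interval of 1.67 to 2.02. Among all genes tested, this change ranked 22 from the top of 10940 in Huh1 and 181 of 11565 in Huh7.

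A short stretch of the PLK2 promoter is shown because PLK2 was the p53 target gene with the highest limma change and because its promoter window holds letters that fit the p53 half-site, the element that binds a p53 dimer. Promoter windows of 300 bases, 250 before and 50 after the start of transcription, were taken from RefSeq on GRCh38.p14 and matched 30 of the 36 symbols. A p53 half-site without mismatch was found on either strand in 5 of these 30 windows (16.7%), those of PLK2, FDXR, AEN, RPS27L and EI24, against 6.54% of 27305 windows of all genes. A full site, a pair of half-sites in tandem with at most 1 base between them, intact cores and at most 3 mismatches, was found in AEN and RPS27L (6.67%), against 0.82% of all windows. The capitals below mark the half-site of PLK2 and FDXR and the full site of AEN and RPS27L, each in 50 bases on the strand of the gene.
PLK2: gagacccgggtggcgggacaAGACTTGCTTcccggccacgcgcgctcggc
FDXR: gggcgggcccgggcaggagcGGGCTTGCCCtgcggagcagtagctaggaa
AEN: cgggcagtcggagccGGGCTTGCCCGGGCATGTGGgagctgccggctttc
RPS27L: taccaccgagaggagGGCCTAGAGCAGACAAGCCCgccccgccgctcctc
The stretch of PLK2 lies on the minus strand at chr5:58460189-58460238, that of FDXR on the minus strand at chr17:74872976-74873025, that of AEN on the plus strand at chr15:88621291-88621340 and that of RPS27L on the minus strand at chr15:63157512-63157561. The half-site of PLK2 begins 132 bases before the start of transcription. Of these 4 genes, PLK2 rose in both lines, while the changes in Huh1 and Huh7 were 0.19 and -0.04 for AEN, -0.19 and 0.23 for FDXR and -0.09 and -0.61 for RPS27L. The windows of PERP and BTG2 held no half-site without mismatch, and nor did that of MDM2. Sequence outside the 300-base windows was not scanned, so a lack of a match says nothing of sites elsewhere. A match of letters is a description of the sequence, and binding of p53 was not measured.

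BTG2 encodes an antiproliferative protein that recruits the deadenylase complex and slows entry into S phase. Its level was 3.94 RPKM with NCsiRNA and 4.36 RPKM with CDCA8siRNA in Huh1, and 13.1 and 31.3 RPKM in Huh7. The Huh7 knockdown library stood far above the other 3, and the Huh1 libraries were near each other. The change was 0.12 in Huh1 and 1.20 in Huh7, where it ranked 45 from the top of 11565 genes. The RPKM ratio was 1.11 (counting interval 0.876 to 1.40) in Huh1 and 2.39 (2.14 to 2.68) in Huh7. The common change by limma was 0.66 ± 0.207 (SE) with an adjusted p of 0.0787, and it passed the threshold with quantile normalization (adjusted p = 0.0052) and upper quartile scaling (adjusted p = 0.024), while the other alternatives gave limma adjusted p-values from 0.0791 to 1. Whether the response of BTG2 differed between the lines could not be tested with 1 library per condition.

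The GADD45 genes encode small stress proteins that bind PCNA and the cyclin B kinase and activate the p38 and JNK pathways. GADD45A, named after its values were seen, measured 18.9 and 17.7 RPKM in Huh1 and 37.2 and 55.1 RPKM in Huh7 with NCsiRNA and CDCA8siRNA. GADD45B measured 12.8 and 13.2 RPKM in Huh1 and 77.3 and 54.7 RPKM in Huh7. In Huh7, therefore, GADD45A was higher and GADD45B lower with CDCA8siRNA, and in Huh1 both were near the control. The changes in Huh7 were 0.56 for GADD45A and -0.49 for GADD45B, with ratios of 1.48 (counting interval 1.32 to 1.66) and 0.708 (0.650 to 0.771), and in Huh1 they were -0.09 and 0.04. Neither passed limma over both lines, with adjusted p-values of 0.346 and 0.308. GADD45G measured 4.28 and 4.06 RPKM in Huh1 and 0.693 and 0.689 RPKM in Huh7, and so differed between the lines and hardly between the siRNAs.

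CCNG2, an unconventional cyclin linked to arrest, measured 0.505 and 0.374 RPKM in Huh1 and 3.83 and 2.88 RPKM in Huh7. It was under the filter in Huh1, where the counting interval of the ratio was wide (0.433 to 1.25), and in Huh7 the change was -0.32, short of the 2-fold threshold, with an interval below 1 (0.621 to 0.909). PLK3, the stress-responsive relative of PLK2, was low throughout, from 1.49 to 3.87 RPKM, and changed by 0.05 and 0.29. Thus 1 of the 5 genes of this role that entered limma passed it, where 6.03% of all genes were called higher and 4.21% lower. The median common change of the 5 was 0.23, against 0.03 for all genes.

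Among the 9 genes for death receptors and apoptosis in the tables, PERP stood apart. PERP encodes a tetraspan membrane protein of desmosomes that takes part in p53-dependent cell death. Its level was 35.1 RPKM with NCsiRNA and 67.9 RPKM with CDCA8siRNA in Huh1, and 23.3 and 38.7 RPKM in Huh7. As for PLK2, both knockdown libraries lay above both control libraries. PERP rose by 0.93 in Huh1 and 0.71 in Huh7, just under the 2-fold threshold in Huh1, and limma gave 0.82 ± 0.0978 (SE) with an adjusted p of 0.00233. The ratio was 1.94 (counting interval 1.84 to 2.05) in Huh1 and 1.66 (1.54 to 1.78) in Huh7, and the change ranked 53 from the top in Huh1 and 345 in Huh7. The calls of PLK2 and PERP were both lost without the filter on low values (limma adjusted p = 0.252 for each) and without the cell line covariate (adjusted p = 1 for each), settings under which limma called 0 of all genes, and were kept under the other 5 alternatives, with adjusted p-values of at most 0.0131.

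The death receptors showed no common movement. TNFRSF10B, a receptor of the ligand TRAIL, measured 8.75 and 8.32 RPKM in Huh1 and 29.3 and 38.3 RPKM in Huh7 with NCsiRNA and CDCA8siRNA. Both Huh7 libraries were above both Huh1 libraries, and the change with CDCA8siRNA was -0.06 in Huh1 and 0.38 in Huh7, with a ratio of 1.31 (counting interval 1.22 to 1.40) in Huh7. TNFRSF10A, the other TRAIL receptor with an intact death domain, lay between 3.38 and 6.51 RPKM and changed by 0.34 and 0.03. FAS, the receptor of the FAS ligand, stayed under 1 RPKM in every library, from 0.0306 to 0.285 RPKM, with 1 read in each Huh7 library, so its response was not detectable at this depth.

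Several apoptosis genes were lower in Huh7 than in Huh1. TP53I3 (PIG3), an oxidoreductase that raises reactive oxygen species, measured 64.4 and 70.9 RPKM in Huh1 and 22.3 and 26.9 RPKM in Huh7, with changes of 0.14 and 0.26. TRIAP1, a small mitochondrial protein that inhibits apoptosome formation, measured 38.1 and 41.4 RPKM in Huh1 and 17.2 and 22.3 RPKM in Huh7, with changes of 0.11 and 0.35. In Huh7 the ratio was 1.21 (counting interval 1.02 to 1.43) for TP53I3 and 1.30 (1.09 to 1.53) for TRIAP1. TP53I11 (PIG11) measured 11.0 and 13.7 RPKM in Huh1 and 0.326 and 0.139 RPKM in Huh7. The change of TP53I11 in Huh1 was 0.29, with a ratio of 1.24 (counting interval 1.09 to 1.42), and in Huh7 it was under the filter. AEN, a nuclease of apoptotic DNA degradation, lay between 15.2 and 24.6 RPKM, and ZMAT3, an RNA-binding zinc finger protein, between 3.63 and 4.12 RPKM. By limma the adjusted p was 0.210 for TP53I3 and 0.181 for TRIAP1, and the median common change of the 7 genes of this role in the fit was 0.18.

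Feedback regulators of p53 were near their control levels. MDM2, the ubiquitin ligase of p53 and a widely used readout of its activity, measured 15.5 and 15.4 RPKM in Huh1 and 19.8 and 17.8 RPKM in Huh7 with NCsiRNA and CDCA8siRNA. Its change was -0.01 in Huh1 and -0.14 in Huh7, and limma gave -0.08 ± 0.102 (SE) with an adjusted p of 0.691. At 2622 reads in the Huh1 control library, from the GENCODE length of 12633 bases, the counting interval of the ratio was narrow. Its bounds were 0.942 and 1.05 in Huh1 and 0.855 and 0.949 in Huh7. With this length a 1.5-fold rise lay outside the counting error in both lines. No length gave whole reads for MDM2, and a shorter one would give fewer reads and wider intervals. MDM4, its inhibitory relative, PPM1D, a phosphatase that switches the damage response off, and CCNG1, a cyclin that directs phosphatase to MDM2, changed by between -0.15 and 0.09 in either line. RPS27L, a ribosomal protein that binds MDM2, is named after its values were seen, since it had the lowest change in Huh7 among the 28 p53 target genes tested in both lines. It measured 42.9 and 40.3 RPKM in Huh1 and 53.4 and 34.7 RPKM in Huh7, with changes of -0.09 and -0.61. The common change by limma was -0.35 ± 0.124 (SE) with an adjusted p of 0.110, and it passed the threshold with quantile normalization (adjusted p = 0.0219) and upper quartile scaling (adjusted p = 0.0459), while the other alternatives gave limma adjusted p-values from 0.0907 to 1. RPS27L has a close paralog in RPS27, which could take or give reads, and its transcript length could not be settled, so no counting interval is given. The median common change of these 5 genes was -0.08.

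Genes for DNA repair and nucleotide supply were also near their control levels. The 4 genes of this role are XPC and DDB2, which recognise damaged bases in nucleotide excision repair, POLH, a polymerase that copies past ultraviolet lesions, and RRM2B, the p53-induced subunit of ribonucleotide reductase. Their levels ranged from 3.39 to 13.7 RPKM over the 4 libraries. RRM2B, as an example, measured 11.5 and 11.9 RPKM in Huh1 and 11.6 and 11.5 RPKM in Huh7. The 4 genes changed by between -0.27 and 0.15 in either line, and the counting interval of the ratio held 1 for all 4 in Huh1. Of the 4, 0 passed limma, where 6.03% of all genes were called higher and 4.21% lower.

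In metabolism, autophagy and mitochondria, 0 of 5 genes passed limma, where 6.03% of all genes were called higher and 4.21% lower. The median common change of the 5 was 0.02. DRAM1, a lysosomal membrane protein that promotes autophagy, measured 4.13 and 4.31 RPKM in Huh1 and 11.7 and 14.2 RPKM in Huh7, with changes of 0.05 and 0.25. Its ratio in Huh7 was 1.21 (counting interval 1.07 to 1.36), and both Huh7 libraries stood above both Huh1 libraries. SESN1, a sestrin that restrains mTORC1, C12orf5 (TIGAR), a phosphatase that lowers glycolytic flux, TP53INP1, an autophagy and apoptosis protein, and FDXR, the ferredoxin reductase of mitochondria, changed by between -0.19 and 0.23. TP53INP1, for example, measured 18.9 and 17.8 RPKM in Huh1 and 14.0 and 14.0 RPKM in Huh7. SPATA18 (MIEAP), which acts in mitochondrial quality control, was under 1 RPKM in every library, from 0 to 0.133 RPKM.

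The remaining 3 genes differed more by cell line than by siRNA. KITLG, the ligand of the receptor KIT, measured 53.7 and 59.0 RPKM in Huh1 and 5.06 and 7.83 RPKM in Huh7. It was higher with CDCA8siRNA in both lines, by 0.13 and 0.54, with ratios of 1.10 (counting interval 1.05 to 1.15) and 1.55 (1.35 to 1.78) and a limma adjusted p of 0.106. CYFIP2, a subunit of the WAVE complex that controls actin, measured 0.216 and 0.275 RPKM in Huh1 and 7.09 and 3.85 RPKM in Huh7. The change of CYFIP2 in Huh7 was -0.74, with a ratio of 0.542 (counting interval 0.455 to 0.647), and in Huh1 it was under the filter. STEAP3, a metalloreductase of iron uptake, measured 9.86 and 8.47 RPKM in Huh1 and 20.9 and 18.7 RPKM in Huh7, and was lower with CDCA8siRNA by 0.20 and 0.15 without passing limma (adjusted p = 0.322).

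**Figure D2:**
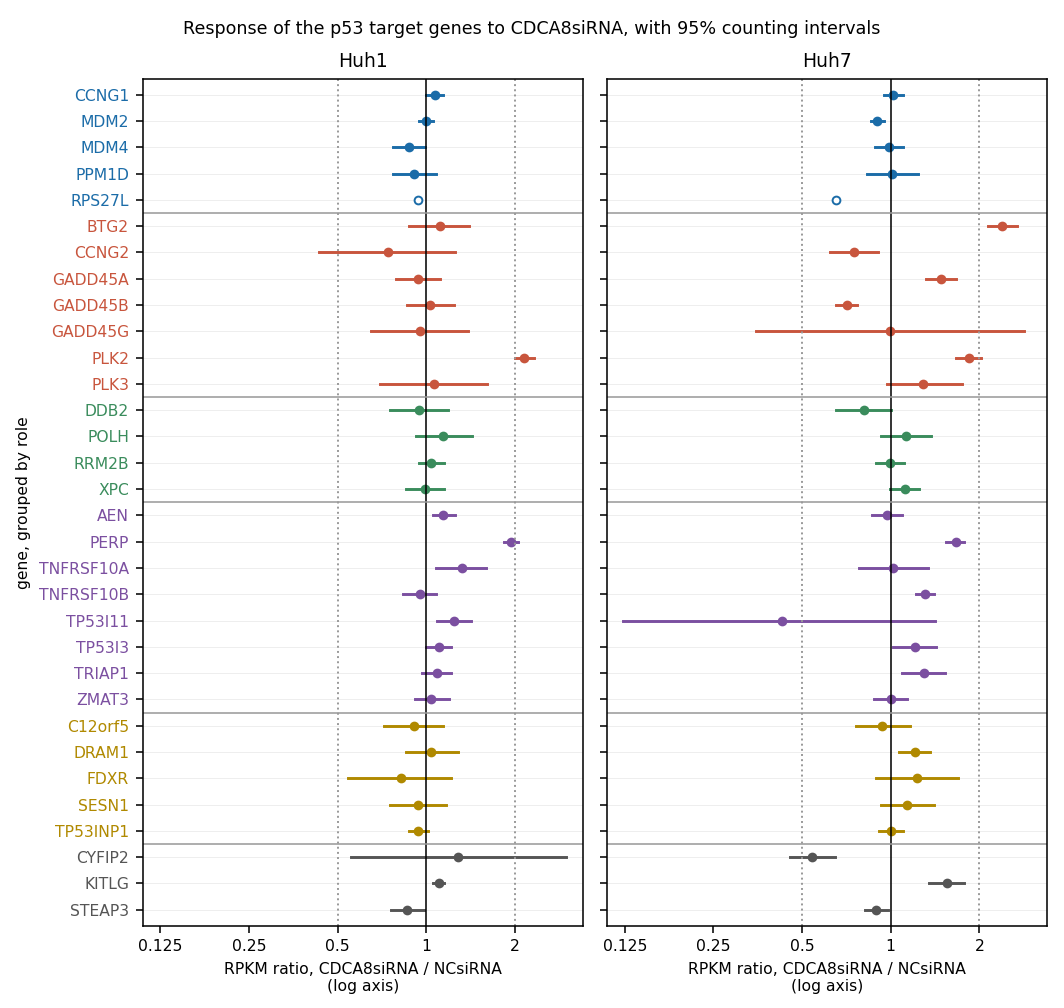
The RPKM ratio of CDCA8siRNA to NCsiRNA is plotted on a log axis for Huh1 (left) and Huh7 (right), for the 32 p53 target genes that reached 1 RPKM in at least 1 library, colored and grouped by role. Bars are 95% counting intervals, open points have none, the black line marks a ratio of 1 and dotted lines 2-fold changes. PLK2 and PERP lie right of 1 in both panels, while BTG2, at 2.39, and GADD45A, at 1.48, do so in Huh7.

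The plot of ratios also shows which differences exceeded counting error. Bounds were rounded before counting. Of the genes with a counting interval, the interval lay above 1 for 6 in Huh1 (PLK2, PERP, TNFRSF10A, TP53I11, AEN and KITLG) and below 1 for 2 (MDM4 and STEAP3), and it held 1 for 24. Those 24 include CCNG1, which lies at the edge, with a lower bound of 1 after rounding (1 to 1.14). In Huh7 the interval lay above 1 for 9, below 1 for 5 and held 1 for 19, among them DDB2 at the edge (0.653 to 1). The genes above 1 in Huh7 were BTG2, PLK2, PERP, KITLG, GADD45A, TNFRSF10B, TRIAP1, TP53I3 and DRAM1, and those below 1 were MDM2, CCNG2, GADD45B, CYFIP2 and STEAP3. PLK2, PERP and KITLG were thus above 1 in both lines, and STEAP3 was below 1 in both. These intervals cover counting error only, since reads of a library with no molecular identifiers are not independent molecules, and they say nothing of the variation between transfections. Read numbers were recovered only for the listed genes, so no share over all genes can be set beside these counts. The counts are therefore not read as a response of the p53 target genes.

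More of the p53 target genes differed by 2-fold between the lines than between the siRNAs, and the same held for all genes. Between the siRNAs, 0.873% of all genes tested were at least 2-fold higher and 0.700% lower in Huh7, and fewer in Huh1. With NCsiRNA the median level of the 34 genes was 6.93 RPKM in Huh1 and 10.1 RPKM in Huh7. Of 32 tested genes, 7 were at least 2-fold higher in Huh7 than in Huh1 (CYFIP2, GADD45B, CCNG2, TNFRSF10B, BTG2, DRAM1 and STEAP3), against 17.0% of all 11896 genes tested, and 5 were at least 2-fold lower (TP53I11, KITLG, GADD45G, TP53I3 and TRIAP1), against 10.2%. The shares of the p53 target genes were 21.9% and 15.6%, which rest on few genes. Their median difference was 0.29, where the median of all genes was 0.14. With quantile normalization the median of all genes became -0.001 and the calls over all genes were 1644 higher and 1504 lower in place of 2028 and 1211, while those of the p53 target genes were 6 and 5.

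On the log2(RPKM + 1) scale the widest gaps between the control libraries were found for CYFIP2, GADD45B, TP53I11 and KITLG. CYFIP2 was higher in Huh7 by 2.74 and GADD45B by 2.51. TP53I11 differed by -3.18 and KITLG by -3.17, both lower in Huh7. The order differs for the plain ratio of RPKM, which the added 1 does not damp. By that ratio TP53I11 was 33.8 times, KITLG 10.6 times and GADD45G 6.18 times as high in Huh1 as in Huh7. CYFIP2 was 32.9 times and CCNG2 7.59 times as high in Huh7 as in Huh1, and GADD45B was 6.06 times as high in Huh7 as in Huh1 (counting interval 5.27 to 6.99). By role, the genes of growth arrest had a median difference of 0.94 and those of death receptors and apoptosis one of -0.50, so that Huh7 was higher in 5 of 7 of the first and lower in 6 of 8 of the second, where 6802 of all 11896 genes were higher and 5094 lower. Line identity cannot be told apart here from anything else in which the 2 control libraries differ.

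**Figure D3:**
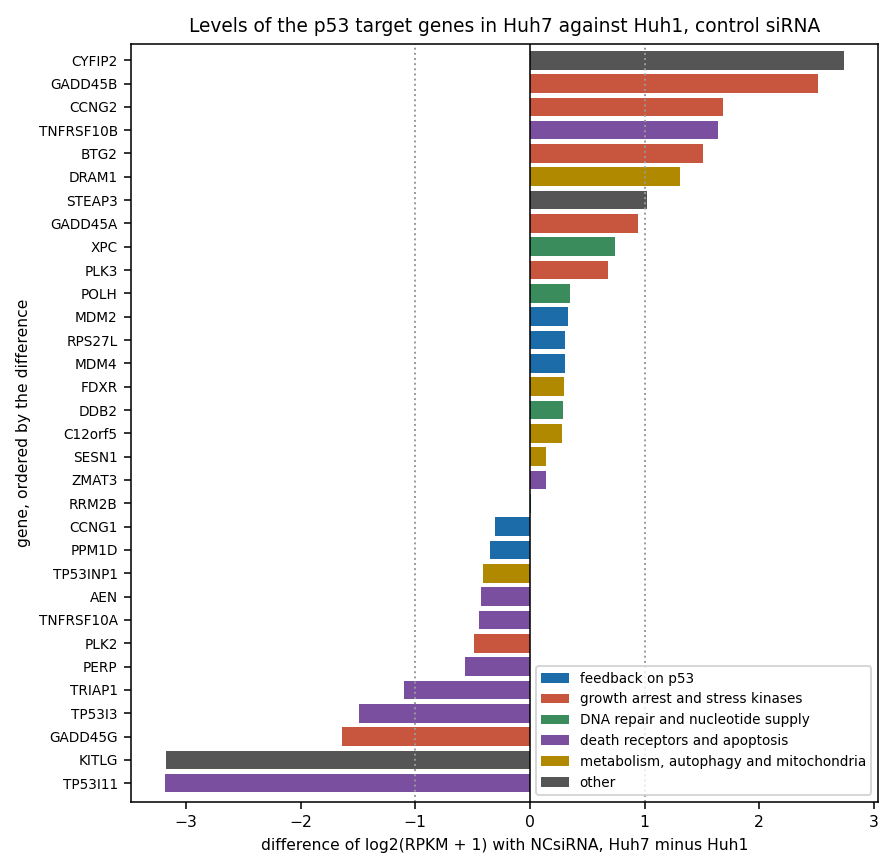
Bars show the difference of log2(RPKM + 1) between Huh7 and Huh1 with NCsiRNA, 1 library each, for the 32 p53 target genes that reached 1 RPKM in at least 1 library, ordered by the difference and colored by role. Dotted lines mark a 2-fold difference. The bars run from -3.18 (TP53I11) to 2.74 (CYFIP2), with RRM2B next to no difference at 0.01.

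**Figure D4:**
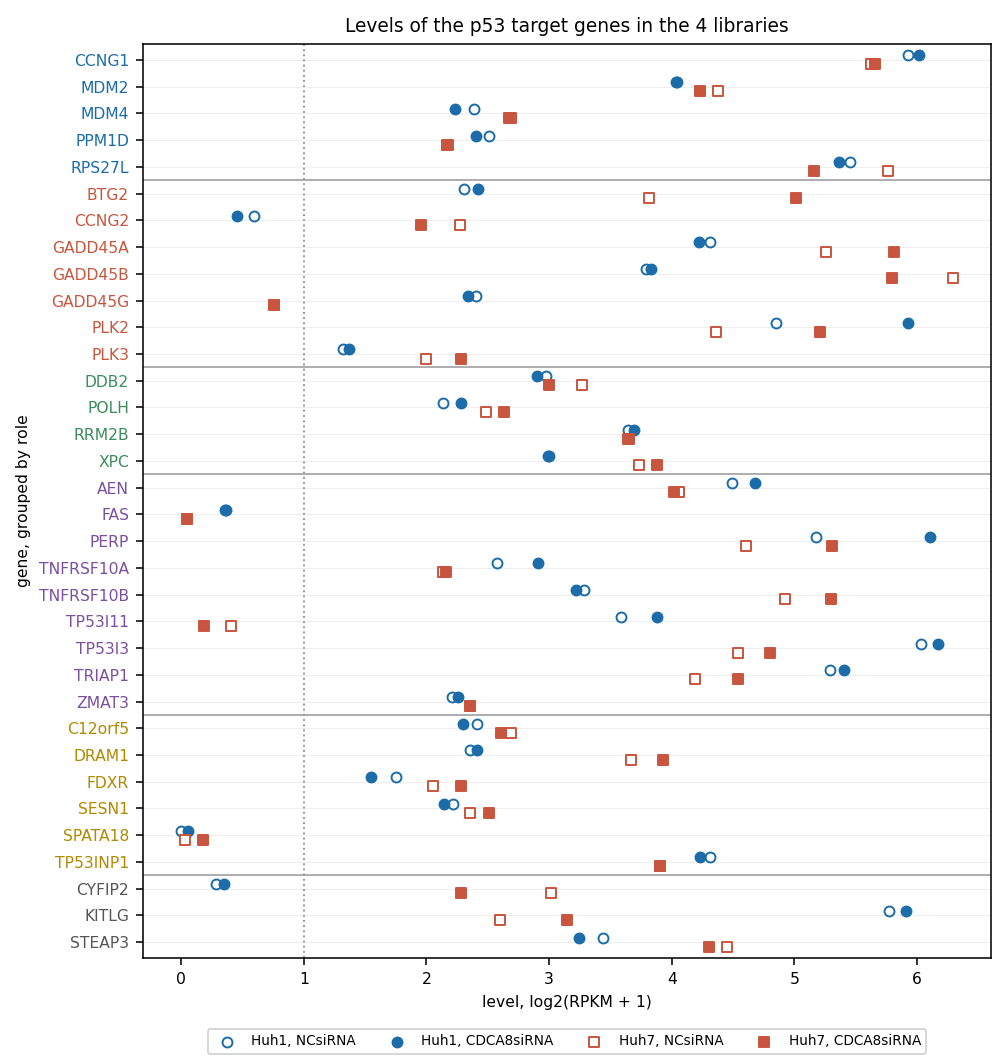
The level of each of the 34 p53 target genes is plotted as log2(RPKM + 1), grouped by role, with circles for Huh1, squares for Huh7, open symbols for NCsiRNA and filled symbols for CDCA8siRNA. The dotted line marks 1 RPKM. In most rows the open and filled symbols of a line lie close together, while PLK2 and PERP are shifted to the right with CDCA8siRNA in both lines, and KITLG, TP53I11 and CYFIP2 are separated by cell line.

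The rest of the p53 pathway was read from 3 further lists. Of 15 genes for relatives and activators of p53, 12 entered limma, 0 were higher and 1 was lower, against 6.03% and 4.21% of all genes. The lower gene was CDKN2A, whose product ARF inhibits MDM2 and whose product p16 inhibits cyclin D kinases (change -0.48, adjusted p = 0.0318). The value used belongs to 1 RefSeq transcript, and the RNAs of ARF and p16 were not measured apart.

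Of 35 other known targets that p53 induces, 31 were in the tables and 23 entered limma, with 2 higher (against 6.03% of all genes) and 0 lower (against 4.21%) and a median common change of 0.03. The higher genes were IGFBP3, a binding protein of insulin-like growth factors (0.50, adjusted p = 0.0129), and THBS1, an inhibitor of blood vessel growth (0.62, adjusted p = 0.0320). IGFBP3 changed by 0.60 in Huh1 and 0.41 in Huh7, and THBS1 by 1.01 and 0.24. CDKN1A, which encodes the cyclin-dependent kinase inhibitor p21 and is the best known target of p53, measured 18.6 and 11.5 RPKM in Huh1 and 3.66 and 5.63 RPKM in Huh7. It was therefore lower with CDCA8siRNA in Huh1, by 0.65, and higher in Huh7, by 0.51, and the limma adjusted p over both lines was 0.870. GDF15, a secreted stress cytokine, measured 29.9 and 53.6 RPKM in Huh1 and 31.0 and 32.9 RPKM in Huh7, and only its Huh1 knockdown library stood apart (limma adjusted p = 0.0945). BAX, a pore-forming death effector, measured 93.1 and 86.1 RPKM in Huh1 and 53.6 and 45.2 RPKM in Huh7. BBC3 (PUMA), a BH3 protein, was low, with 0.934 and 1.12 RPKM in Huh1 and 1.78 and 3.05 RPKM in Huh7. SESN2, a sestrin, measured 9.30 and 7.44 RPKM in Huh1 and 6.52 and 6.91 RPKM in Huh7. None of BAX, BBC3 and SESN2 passed limma, with adjusted p-values of 0.244, 0.221 and 0.638.

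Cell cycle genes that p53 represses through p21 and the DREAM complex were read from 20 genes, all of which entered limma. Of these 3 were lower, against 4.21% of all genes, and 1 was higher, against 6.03%. The median change was -0.18 in Huh1 and -0.18 in Huh7, with 15 and 16 of the 20 genes below 0, where 4915 of 10940 and 5257 of 11565 genes were below 0 overall. The 3 lower genes were PLK1, a mitotic kinase (-0.55, adjusted p = 0.00938), TOP2A, the topoisomerase of chromosome segregation (-0.40, adjusted p = 0.0192), and AURKB (-0.39, adjusted p = 0.0470). The higher gene was BIRC5, which encodes survivin (0.48, adjusted p = 0.0450). BIRC5 changed by 0.21 in Huh1 and 0.76 in Huh7, and AURKB by -0.21 and -0.58. AURKB and BIRC5 encode partners of CDCA8 in the chromosomal passenger complex.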

How the data were processed

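RNA-seq libraries from Huh1 and Huh7 cells were grouped by their labels, and the dose and time came from the study's text. The authors deposited 1 value per RefSeq transcript and library, whose steps behave as RPKM. The submitters' processing notes list CASAVA 1.8.2, TopHat2 2.0.9 and hg19, and the counting tool is not given in the sources used here. The p53 target genes and all lists were chosen with earlier results of these data known, and 1 gene of these lists is not reported here.

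Read numbers were recovered from the steps of the RPKM values, with a transcript length that gave whole reads for 11 genes or steps of 0.5 read for 2 (within 0.0002 reads) and the GENCODE length for 20. For these 20 the read numbers and the width of the intervals depend on that length, which may differ from the authors' length. Total reads were 13384836 (Huh1, NCsiRNA), 13193713 (Huh1, CDCA8siRNA), 12197606 (Huh7, NCsiRNA) and 12266642 (Huh7, CDCA8siRNA). Exact (Clopper-Pearson) 95% intervals of ratios were computed from them, and no count test was applied. Changes were differences of log2(RPKM + 1) over genes reaching 1 RPKM in 1 or both libraries of a pair, called at 2-fold. The study used 2-fold together with a p-value threshold, and whether it added 1 to the values is not given. The calls here are therefore not those of the study. The study's own test was not repeated, since there was 1 library per condition. limma 3.58.1 in R 4.3.3 (lmFit, eBayes with a trend, Benjamini-Hochberg adjustment over all genes) was fitted to the 4 libraries together with cell line as covariate (1 residual degree of freedom). It was tested on simulated data with the same set changes in both lines, so lines that respond differently were not covered. Python 3.11.15, numpy 2.4.6, pandas 2.3.3 and scipy 1.17.1 were used.

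p53 target genes named with all their values had at least 1 RPKM in 1 library and an adjusted p under 0.05, a 1.5-fold change alike in both lines, a 2-fold change in either line or a 2-fold difference between the controls. The others are given by range with an example per role. The alternatives were a pseudocount of 0.1 RPKM, no filter, a minimum of 5 RPKM, quantile normalization, upper quartile scaling, a 1.5-fold threshold, and limma without the covariate or the trend.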

Additional observations from a re-analysis of the deposited data

Results flagged for a closer look

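CDKN1A, the gene of p21, was lower with CDCA8siRNA in Huh1 (log2 change of -0.65) and higher in Huh7 (0.51), so that the response in Huh7 minus that in Huh1 was 1.16. The counting interval of the RPKM ratio lay below 1 in Huh1 (0.537 to 0.710) and above 1 in Huh7 (1.19 to 2.02). Each line gave 1 library per siRNA, and the difference between the lines was not tested.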

How the results depend on the processing

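The siRNAs were paired by cell line in the limma fit. No paired analysis by replicate number was possible because each condition had 1 library, and for the same reason no replicate could be left out. The calls of p53 target genes were recomputed under the alternatives. At a 1.5-fold threshold, 2 genes were higher with CDCA8siRNA in Huh1, and in Huh7 3 were higher and 2 lower. At that threshold 271 of all 10940 genes were higher in Huh1, and 613 were higher and 396 lower of 11565 in Huh7. Limma called 0 genes higher without the filter on low values and without the cell line covariate, where it called 0 of all genes at an adjusted p under 0.05 (2440 and 89 genes at an unadjusted p under 0.05). With quantile normalization and with upper quartile scaling limma called 3 higher, with BTG2 added, and 1 lower, RPS27L. Over all genes it then called 789 higher and 750 lower of 10396 with quantile normalization, and 763 and 640 of 10368 with upper quartile scaling. The median change in Huh1 was -0.016 with quantile normalization. The cause of these shifts was not tested. The other 52 recomputed counts and medians moved by at most 1.5 times or, for medians, by less than the counting spread. BTG2 had no limma value at a minimum of 5 RPKM, since both Huh1 libraries were below it. Over all genes the limma calls ranged from 443 to 789 higher and 267 to 750 lower under the alternatives that gave calls. The number of 2-fold calls over all genes rose to 107 and 57 in Huh1 and to 269 and 153 in Huh7 with a pseudocount of 0.1 RPKM. Depth limited FAS, SPATA18 and, in Huh1, CYFIP2 and CCNG2 and, in Huh7, TP53I11 and GADD45G, and the median counting interval was ± 0.23 in Huh1 and ± 0.199 in Huh7 on the log2 scale.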
